A study of Homo sapiens with 6 samples.

Results

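MM1S, an established human line of myeloma (malignant plasma cells), was profiled on single-colour oligonucleotide arrays, and the transcripts of enzymes that make, recycle and break down nucleotides are described here. The genes were taken from a list of 39 named enzymes. A member counted as measured where at least 1 probe set of the array carried its symbol alone, which held for 37 of the 39, among 19775 genes read in all. ADSS2, of the step from inosine monophosphate towards adenosine monophosphate, and UCK2, a uridine and cytidine kinase, were not analysed here for that reason. Where a gene had several probe sets, the one whose log2 values had the highest mean across arrays stood for it, and the others were compared with it.

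RNA came from MM1S cells labelled normoxia on 3 arrays and from MM1S cells labelled hypoxia on 3 arrays. The treatment text names an exposure of 24 h and is the same on all 6 arrays. It gives neither the oxygen level nor the handling of the normoxia cells. All arrays share the cell line, so the findings rest on 1 line. Nothing in the labels says whether the replicates came from separate cultures, so the p-values speak only of how far these samples vary, and that variation may be technical. In RNA from a whole culture, fewer cells of a kind (such as cells in S phase) and less RNA per cell cannot be told apart.

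The de novo routes of nucleotide synthesis assemble the purine ring on a phosphorylated ribose, and the pyrimidine ring from carbamoyl phosphate and aspartate, while salvage routes attach recycled bases to ribose or phosphorylate recycled nucleosides. Ribonucleotide reductase then turns ribonucleotides into the deoxynucleotides used for DNA, so dividing cells such as those of myeloma lines draw on all of these routes. The members were sorted into de novo pyrimidine synthesis (5 measured), de novo purine synthesis with the supply of phosphoribosyl pyrophosphate (11), deoxynucleotide synthesis (6), salvage kinases and phosphoribosyltransferases (7), and interconversion and breakdown (8).

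Most of these genes were lower in hypoxia. In limma with Benjamini-Hochberg adjustment over all genes, 23 of the 37 members fell past an adjusted p of 0.05 (62.2%), against 20.6% of all genes tested. A further 4 rose (10.8%), against 16.9% of all genes, and 10 did not pass. Each change is the hypoxia mean less the normoxia mean of log2(intensity + 16), a scale on which changes of dim genes come out too small, and intervals are 95% confidence intervals from limma. The median change was -0.45 over the members and -0.00016 over all genes. A fall of at least 1 on that scale was seen in 10 members, against 4.75% of all genes, and a rise of that size in 0, against 2.92% of all genes. All 3 hypoxia arrays lay below all 3 normoxia arrays for 25 members, against 25.8% of all genes. By branch, 4 of 5 de novo pyrimidine genes fell (median -1.80), 8 of 11 de novo purine genes fell and 2 rose (median -0.47), and 6 of 6 deoxynucleotide genes fell (median -0.86). Of the 7 salvage genes 3 fell (median -0.20), and of the 8 genes of interconversion and breakdown 2 fell and 2 rose (median -0.026). The branches were not tested against each other and differ in brightness, with median normoxia intensities from 462 (de novo pyrimidine) to 7429 (deoxynucleotide), so their medians are not ranked.

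**Figure D1:**
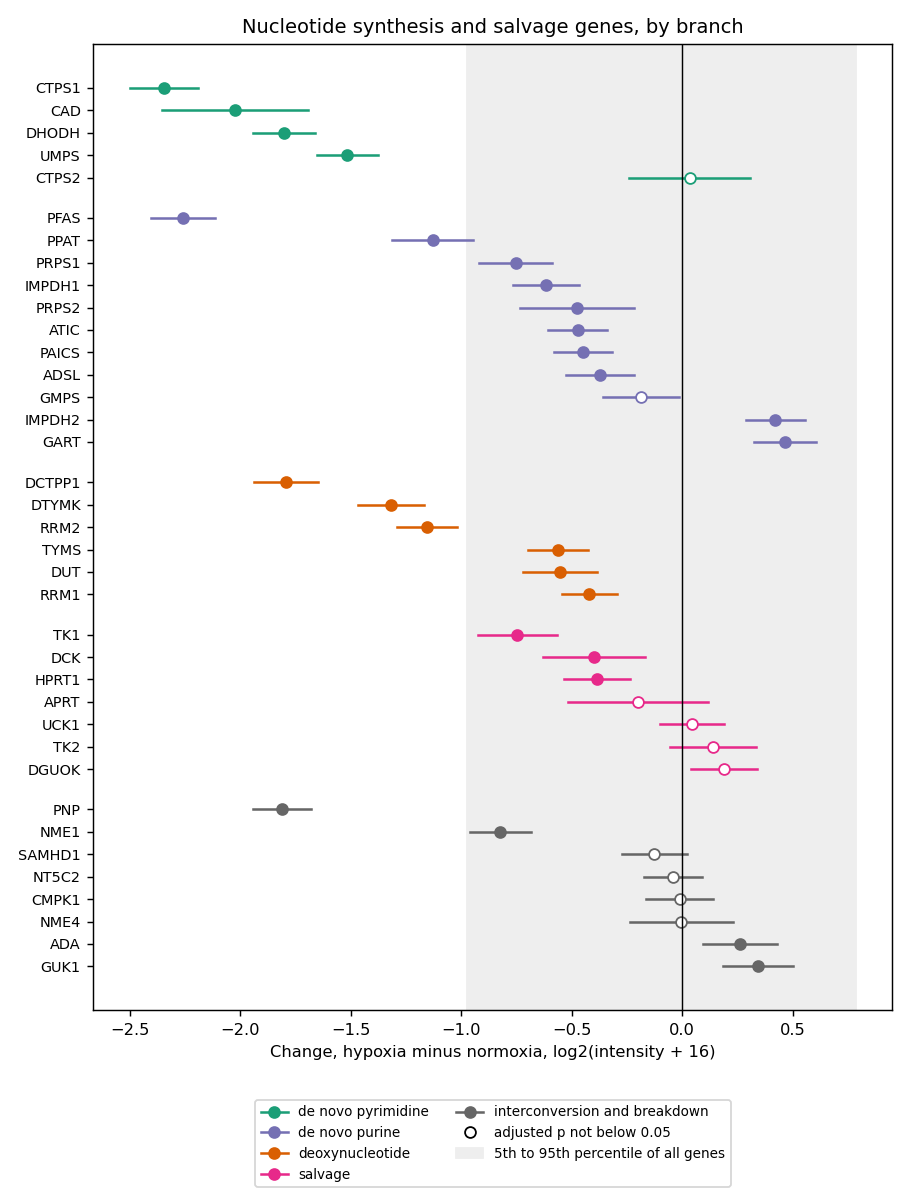
Change of each measured member (hypoxia minus normoxia, log2(intensity + 16), horizontal axis) with its 95% confidence interval from limma, 3 arrays per group, sorted within branches; open circles did not pass an adjusted p of 0.05, and the grey band runs from the 5th to the 95th percentile of all genes. CTPS1, PFAS and CAD lie at -2.35, -2.26 and -2.02, and the salvage genes lie between -0.75 and 0.19.

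Members were mostly bright, and the share of genes that fell was larger among bright genes, so the counts were also set against bright genes alone. Of the 29 members with a mean log2 value of 10 or more, 18 fell and 4 rose. Among all genes above that level, 35.9% fell and 28.1% rose. The size of changes also differed with brightness: the 95th percentile of the absolute change over all genes was 0.92 below a log2 value of 8, 1.56 between log2 values of 8 and 10, 1.27 between 10 and 12, and 0.81 at 12 and above. The 11 members at 12 and above, among them PAICS, RRM1, RRM2, TYMS and DUT, had changes of -1.15 to 0.42. Sizes of change are therefore not compared here between bright and dim members.

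**Figure D2:**
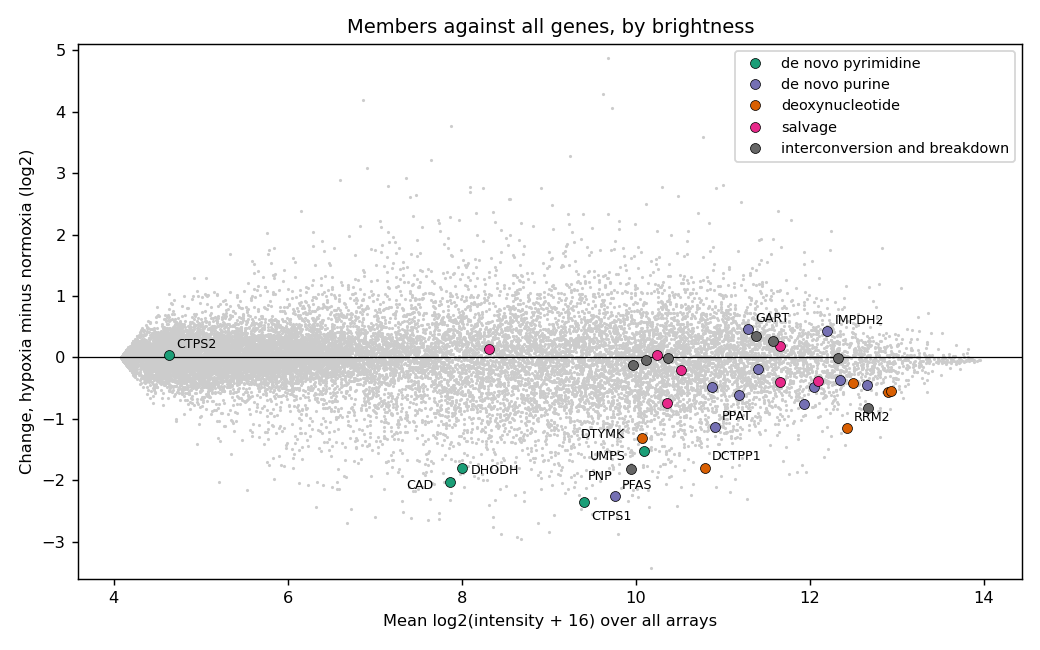
Change (hypoxia minus normoxia, log2, vertical axis) against the mean log2(intensity + 16) over all 6 arrays (horizontal axis) for 19775 genes in grey, with the 37 members coloured by branch. The members lie mainly to the right and below 0, while CTPS2 sits at the dim end.

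The stretches before the starts of members that fell are shown because several of these genes moved together. They are from RefSeq on the GRCh38.p14 build, in lower case 5′ to 3′ on the strand of the gene, with matches to an E-box (CACGTG), to E2F-like words (TTTCGCGC, TTTGGCGC or TTTCCCGC) or to a CCAAT box (CCAAT) on either strand in capitals. For each branch, the member with the largest fall was taken among those whose 250 bases before the outermost start overlap no annotated gene, and the 4 largest falls are given. The purine genes PPAT and PAICS are read in opposite directions from starts with 136 bases between them (chr4:56435616-56435751); that stretch lies within the annotated extent of PAICS and was not printed for that reason. PFAS and PPAT (purine) and DCTPP1 and DTYMK (deoxynucleotide), with larger falls than the members shown for their branches, were left out by the same rule. The stretches, all on the plus strand, are chr1:40979446-40979695 for CTPS1, chr14:20469156-20469405 for PNP, chr2:10122318-10122567 for RRM2 and chrX:107628260-107628509 for PRPS1.
CTPS1: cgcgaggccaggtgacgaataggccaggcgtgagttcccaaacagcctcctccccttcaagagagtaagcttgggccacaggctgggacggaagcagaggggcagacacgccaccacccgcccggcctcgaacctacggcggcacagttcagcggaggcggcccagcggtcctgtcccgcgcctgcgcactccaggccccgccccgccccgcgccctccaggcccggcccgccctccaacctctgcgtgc
PNP: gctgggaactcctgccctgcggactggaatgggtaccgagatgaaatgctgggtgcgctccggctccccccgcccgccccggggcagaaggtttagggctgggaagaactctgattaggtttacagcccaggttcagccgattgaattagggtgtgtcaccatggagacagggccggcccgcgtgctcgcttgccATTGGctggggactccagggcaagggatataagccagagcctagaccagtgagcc
RRM2: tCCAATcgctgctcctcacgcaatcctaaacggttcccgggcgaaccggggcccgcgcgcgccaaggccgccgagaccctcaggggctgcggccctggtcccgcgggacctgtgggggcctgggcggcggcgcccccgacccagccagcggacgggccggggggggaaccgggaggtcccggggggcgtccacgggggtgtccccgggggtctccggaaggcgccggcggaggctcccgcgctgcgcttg
PRPS1: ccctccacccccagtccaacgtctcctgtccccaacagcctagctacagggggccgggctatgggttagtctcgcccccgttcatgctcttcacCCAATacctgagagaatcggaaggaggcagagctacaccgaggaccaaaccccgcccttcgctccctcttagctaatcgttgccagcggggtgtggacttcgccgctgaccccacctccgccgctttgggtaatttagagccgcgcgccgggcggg

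Capitals mark a CCAAT box in 3 of these stretches, 55 bases before the start in PNP (read as ATTGG), 249 before it in RRM2 and 156 before it in PRPS1. None of the 3 motifs was found in the stretch of CTPS1. These distances are to the outermost annotated start. CTPS1 and RRM2 also have starts over 100 bases inside the gene, whose stretches are not shown. Over windows of 300 bases, from 250 before to 50 after each RefSeq start, 35 of the 37 measured members were matched, with 50 windows; IMPDH2 and ADSL were not. Of those windows 20 belong to starts over 100 bases inside the annotated gene. The E-box was found in 14% of the member windows and 7.26% of all 35116 windows. The 7 genes that held it (ATIC, DCK, DCTPP1, DHODH, NME1, PAICS and PPAT) were all among the members that fell, as were 22 of all 35 matched members. E2F-like words were found in 10% of the member windows (DCK, DUT, GART, PRPS2 and TYMS) and 2.74% of all windows. CCAAT was found in 32.0% and 34.6%, and the core of the hypoxia response element, ACGTG, which lies within the E-box, in 34.0% and 21.4%. Members that fell made up 4 of the 5 genes with E2F-like words, 9 of the 13 with CCAAT and 11 of the 15 with ACGTG. These are matches of letters, with no test, and some windows of a gene overlap. Windows of PPAT and PAICS overlap too, so these genes are not 2 separate cases.

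In de novo pyrimidine synthesis, CAD, DHODH and UMPS, which together carry out every step to uridine monophosphate, fell, as did CTPS1, while CTPS2 did not pass. CAD, whose product carries out the opening steps of the route, was at 435, 477 and 449.7 in normoxia and 78.5, 114 and 109 in hypoxia. The groups did not overlap, and the first hypoxia array was the lowest. CAD fell from 454 ± 21.2 to 101 ± 19.4 (intensities as mean ± SD over 3 arrays a group, here and throughout; a log2 difference of -2.02, interval -2.35 to -1.69, with an adjusted p of 0.000138 in limma). DHODH, the mitochondrial enzyme that passes its electrons to the respiratory chain through ubiquinone, was at 461, 477 and 449 in normoxia and 119, 119 and 126 in hypoxia. Its arrays agreed closely within each group, and it fell by 1.80 on the log2 scale (interval -1.94 to -1.66, limma adjusted p = 2.53e-05). UMPS, which completes uridine monophosphate, was at 1811, 1878 and 1819.7 in normoxia and 649, 642 and 606 in hypoxia, a change of -1.51 (limma adjusted p = 3.39e-05). CTPS1, which aminates uridine triphosphate to cytidine triphosphate, was at 1498, 1552 and 1485 in normoxia and 277, 302 and 274 in hypoxia. The groups lay far apart, and CTPS1 fell from 1512 ± 35.6 to 285 ± 15.3 (a log2 difference of -2.35, interval -2.50 to -2.19, with an adjusted p of 2.07e-05 in limma). Its paralogue CTPS2 was at 8.83 ± 3.50 in normoxia against 9.25 ± 0.146 in hypoxia, far below the array medians of 54.95 to 60.1, and no direction is given for it.

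The other probe sets of the pyrimidine genes differed in brightness. Both other probe sets of DHODH fell, with log2 differences of -1.77 and -2.45 (limma over all probe sets, adjusted p = 0.000189 and 0.000203). One other probe set of UMPS fell by 1.60, and its 2 dim ones, at 47.8 and 84.5 in normoxia, did not pass, nor did the dim second one of CAD at 11.7. CTPS1 had 1 probe set.

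Of the 11 de novo purine genes, 8 fell and 2 rose, with log2 differences from -2.26 to 0.47. PRPS1 and PRPS2 encode synthetases of phosphoribosyl pyrophosphate, the activated ribose that de novo synthesis and the phosphoribosyltransferases use. PRPS1 fell from 5077 ± 215 to 3006 ± 154 (log2 difference -0.75, limma adjusted p = 0.000391) and PRPS2 from 2199.8 ± 186 to 1582 ± 166 (log2 difference -0.47, limma adjusted p = 0.0146). PPAT, the enzyme of the first committed step, was at 2698, 2986 and 2809 in normoxia and 1194, 1324 and 1343 in hypoxia. The groups lay far apart beside their spread, and PPAT fell by 1.13 on the log2 scale (interval -1.31 to -0.94, limma adjusted p = 0.000136). PFAS, which adds a nitrogen from glutamine, was at 1876, 1808 and 1963 in normoxia and 384, 387 and 370.1 in hypoxia. All hypoxia arrays lay far below the normoxia arrays (a log2 difference of -2.26, interval -2.40 to -2.11, with an adjusted p of 2.07e-05 in limma). PAICS, which carries out a carboxylation and the addition of aspartate, fell from 7539 ± 165 to 5522 ± 89.1 (log2 difference -0.45). ADSL, which acts both on the way to inosine monophosphate and on the way to adenosine monophosphate, fell from 5905 ± 201 to 4564 ± 202 (log2 difference -0.37). ATIC, which closes the purine ring, fell from 4977 ± 76.7 to 3584 ± 102 (log2 difference -0.47; limma adjusted p = 0.00112, 0.00508 and 0.00101 for PAICS, ADSL and ATIC).

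PPAT and PAICS, whose starts have 136 bases between them, both fell, with log2 differences of -1.13 and -0.45. The brighter second probe set of PPAT fell by 1.26, while a dim one, at 115 ± 9.01 in normoxia and 148 ± 8.80 in hypoxia, rose by 0.33 (limma over all probe sets, adjusted p = 0.0311). For PAICS, 1 other probe set fell by 0.56 and 1, going from 4268 ± 123 to 3812 ± 132, did not pass (log2 difference -0.16, adjusted p = 0.141 in the same fit). The second probe sets of PRPS1, PRPS2 and ADSL fell too, with log2 differences of -1.21, -0.98 and -0.43.

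The enzymes that turn inosine monophosphate into guanosine monophosphate moved in different directions. IMPDH1 and IMPDH2 encode isoforms of the dehydrogenase that commits the pathway to guanine nucleotides. IMPDH1 fell from 2875 ± 63.3 to 1872 ± 82.7 (a log2 difference of -0.62, interval -0.76 to -0.47, with an adjusted p of 0.000526 in limma). IMPDH2 was at 3947, 4099 and 4093 in normoxia and 5281, 5532 and 5478 in hypoxia, with every hypoxia array above every normoxia array, and rose by 0.42 (interval 0.29 to 0.56, limma adjusted p = 0.00159). Each isoform had 1 probe set. Within each array, the log2 ratio of the IMPDH1 to the IMPDH2 probe set was -0.49 ± 0.026 in normoxia and -1.53 ± 0.030 in hypoxia. This ratio shows unequal change and not the relative amounts of the isoforms. Its exact two-sided permutation test gave p = 0.1, the smallest that 3 against 3 arrays allow, as did those of the other 4 pairs of related members (adjusted p = 0.1 over the 5 pairs). The log2 ratio was lower in hypoxia by a difference of -0.28 for PRPS1 to PRPS2 and -0.82 for NME1 to NME4. That of CTPS1 to CTPS2 is not read here, since CTPS2 is dim. GMPS, which completes guanosine monophosphate, was at 2871 ± 162 in normoxia against 2519 ± 116 in hypoxia and did not pass (log2 difference -0.19, interval -0.36 to -0.014, limma adjusted p = 0.0910). It passed at an unchanged size when dim genes were left out (limma adjusted p = 0.0209) and with an intensity trend (limma adjusted p = 0.0207). Another probe set of GMPS fell from 960.3 ± 50.1 to 369 ± 20.2 (log2 difference -1.34, limma over all probe sets, adjusted p = 0.000123), and averaged over its 3 probe sets GMPS fell by 0.62 (limma adjusted p = 0.00276).

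For GART, which encodes an enzyme of several purine steps, the direction depended on the probe set. The one with the highest mean log2 value was at 2063, 2149 and 2119 in normoxia and 2799, 2959 and 3006 in hypoxia, and it rose by 0.47 (limma adjusted p = 0.00136). Of its 8 other probe sets, 6 fell, with log2 differences of -0.46 to -1.44, 1 rose by 0.66, and 1, at 22.0 in normoxia, did not pass. The probe set brightest in normoxia was at 3011, 2912 and 2867 in normoxia and 1712, 1719.7 and 1576 in hypoxia, a log2 change of -0.81 (limma over all probe sets, adjusted p = 0.000456). A choice made on normoxia values favours falls. Averaged over all its probe sets, the change of GART was -0.48 (limma adjusted p = 0.00226). The rise counted for GART above therefore holds for 2 of its 9 probe sets. Where each probe set lies on the transcript was not examined here.

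**Figure D3:**
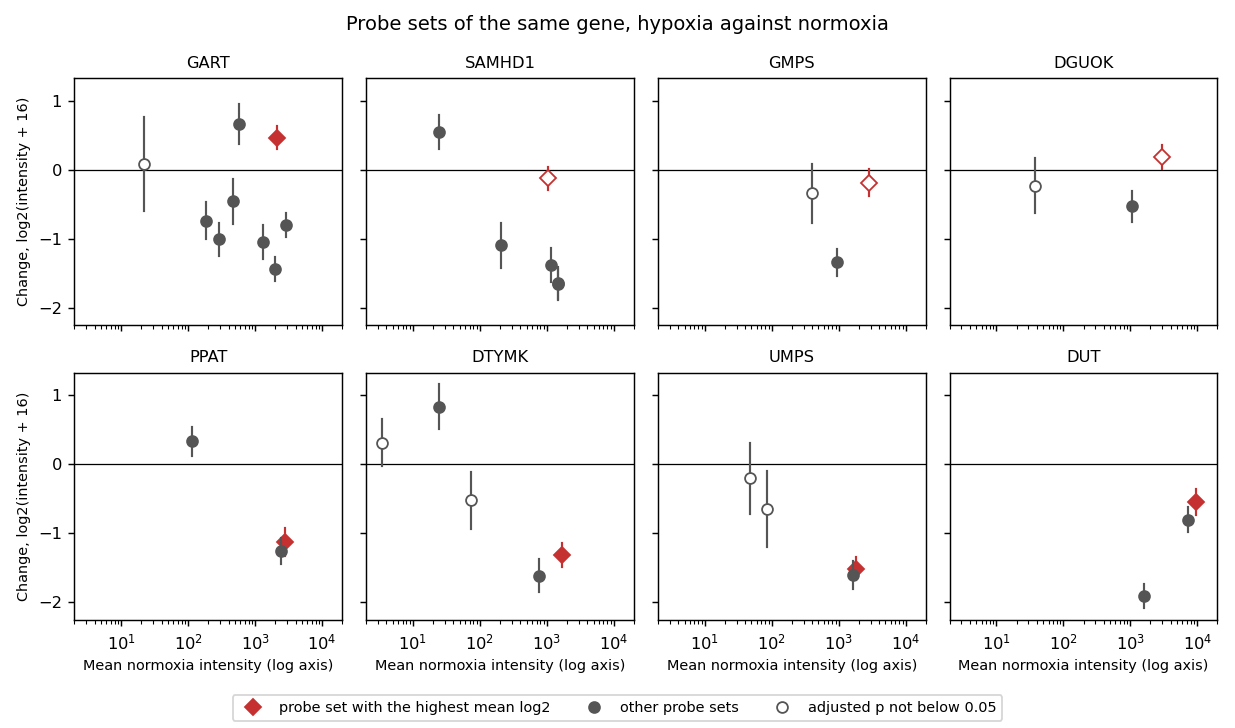
Change of each probe set (hypoxia minus normoxia, log2(intensity + 16), with 95% confidence intervals from the fit over all probe sets) against its mean normoxia intensity (log axis), for 8 members with several probe sets; red diamonds are the probe sets whose log2 values had the highest mean across arrays, and open symbols did not pass an adjusted p of 0.05. In GART and SAMHD1 most other probe sets lie below the red diamond, while in PPAT, DTYMK and UMPS the bright probe sets lie together below 0.

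All 6 deoxynucleotide genes fell. Ribonucleotide reductase pairs a large catalytic subunit, RRM1, with a small radical-bearing subunit, RRM2, whose transcript is known to peak in S phase. RRM1 was at 6629.6, 6683 and 6734 in normoxia and 4899.9, 5018 and 5059 in hypoxia (a log2 difference of -0.42, interval -0.55 to -0.29, with an adjusted p of 0.00128 in limma). RRM2 was at 8152, 8328 and 8048 in normoxia and 3539, 3743 and 3729 in hypoxia, and fell from 8176 ± 141 to 3670.4 ± 114 (a log2 difference of -1.15, interval -1.29 to -1.02, with an adjusted p of 5.61e-05 in limma). Of the RRM2 probe sets, the other had the higher mean intensity in normoxia (9105) and the lower one in hypoxia (3185). Both subunits were lower on every hypoxia array, and their second probe sets fell too, with log2 differences of -0.51 for RRM1 and -1.51 for RRM2. TYMS, which makes thymidylate from deoxyuridylate, was at 9434, 9287 and 9022 in normoxia and 6459.5, 6126 and 6193 in hypoxia (log2 difference -0.56, limma adjusted p = 0.000548). DTYMK, which phosphorylates thymidylate, was at 1652, 1615 and 1774 in normoxia and 659, 665 and 669 in hypoxia (log2 difference -1.32, limma adjusted p = 5.10e-05). No array of one group reached the range of the other in either gene.

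DUT and DCTPP1 encode enzymes that clear deoxyuridine triphosphate, and deoxycytidine triphosphate and its modified forms, from the pool. DUT fell from 9485 ± 536 to 6457 ± 261 (log2 difference -0.55, limma adjusted p = 0.00138), and its 2 other probe sets had log2 differences of -0.81 and -1.91, both past the threshold. DCTPP1 was at 3393, 3208 and 3279 in normoxia and 943, 903 and 971 in hypoxia, with no overlap (a log2 difference of -1.79, interval -1.94 to -1.65, with an adjusted p of 2.66e-05 in limma). The 2 other probe sets of TYMS fell, with log2 differences of -0.73 and -0.84. Of the 4 others of DTYMK 1 fell by 1.62, 1 rose by 0.83 from 24.6 ± 5.82 to 56.0 ± 8.01, and 2 did not pass. The probe set of DTYMK that rose lay below the array medians in normoxia.

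**Figure D4:**
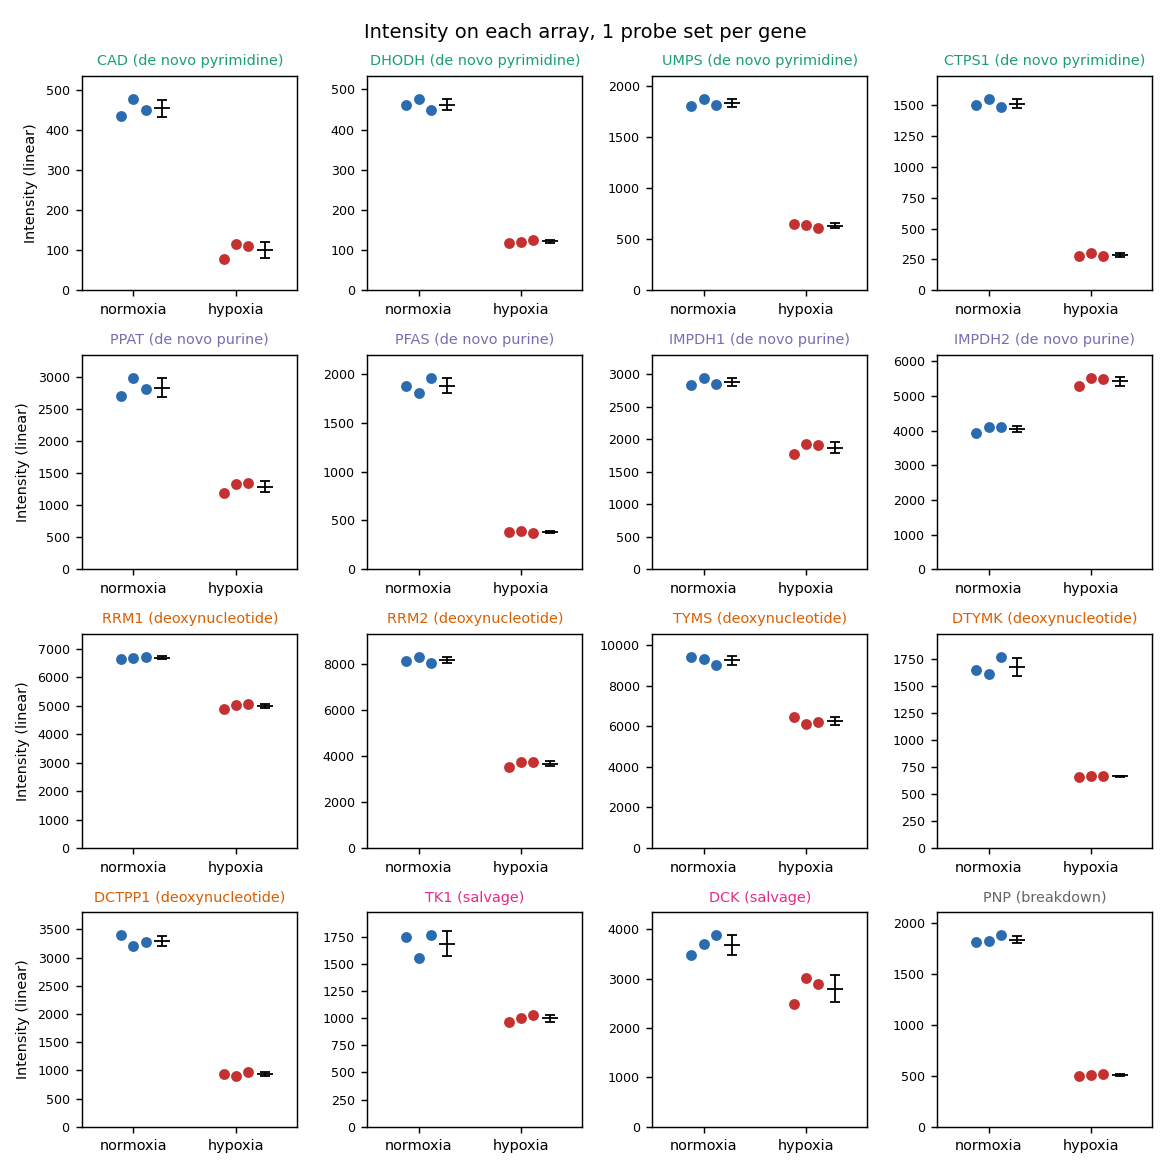
Intensity (linear scale, vertical axes from 0) on each of the 3 normoxia and 3 hypoxia arrays for 16 members, each read by 1 probe set, with the mean and SD beside the points; panel titles give the branch. All 16 were picked from members that passed, so the lack of overlap in every panel follows from that choice. Over all 19775 genes, the hypoxia arrays lay wholly below the normoxia arrays for 5110 and wholly above for 4361. IMPDH2 is the one panel in which hypoxia is higher, at 5430.4 against 4046. GART, GUK1 and ADA, also counted as higher, are not shown.

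Among the salvage genes, TK1, DCK and HPRT1 fell and 4 did not pass. TK1, the cytosolic thymidine kinase, whose transcript is known to rise with entry into S phase, was at 1744, 1549.7 and 1762 in normoxia and 968, 999 and 1025 in hypoxia. It fell from 1685 ± 118 to 998 ± 28.7 (a log2 difference of -0.75, interval -0.92 to -0.57, with an adjusted p of 0.000511 in limma), and its second probe set fell by 0.66. TK2, its mitochondrial counterpart, was at 286 ± 9.77 in normoxia against 318 ± 27.0 in hypoxia and did not pass (log2 difference 0.14, limma adjusted p = 0.234; 0.0491 with quantile normalization, at a change of 0.23). One dimmer probe set of TK2 rose, from 206 ± 13.5 to 261 ± 13.8 (limma over all probe sets, adjusted p = 0.0292). The log2 ratio of the TK1 to the TK2 probe set was 2.49 ± 0.13 in normoxia and 1.61 ± 0.093 in hypoxia, with no overlap of the arrays.

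DCK, the deoxycytidine kinase that also activates nucleoside drugs, was at 3477, 3697 and 3877 in normoxia and 2484, 3023 and 2891 in hypoxia. The first hypoxia array was the lowest, the groups did not overlap, and DCK fell by 0.40 (interval -0.63 to -0.17, limma adjusted p = 0.0190). Its call was lost without normoxia replicate 1 (log2 change -0.39, limma adjusted p = 0.0614) and without normoxia replicate 2 (-0.36, limma adjusted p = 0.0665). DGUOK, the mitochondrial deoxyguanosine kinase, was at 3007 ± 47.6 in normoxia against 3433 ± 162 in hypoxia, with each hypoxia array above each normoxia array, but did not pass (log2 difference 0.19, limma adjusted p = 0.0551). It passed upward without hypoxia replicate 0 (0.23, limma adjusted p = 0.0309), with a pseudocount of 64, with dim genes left out, with median centring, with quantile normalization and with an intensity trend (limma adjusted p = 0.00616 to 0.0435). Its second probe set fell from 1065 ± 87.6 to 730.0 ± 39.0 (log2 difference -0.53, limma over all probe sets, adjusted p = 0.00562), so no direction is given for DGUOK.

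HPRT1, which recycles hypoxanthine and guanine, was at 5204, 4745 and 5031 in normoxia and 3748, 3878 and 3833 in hypoxia and fell by 0.38 (interval -0.53 to -0.24, limma adjusted p = 0.00364). Averaging its probe sets ended this call (-0.24, limma adjusted p = 0.153), where a second probe set at 9.06 in normoxia enters. APRT, the enzyme for adenine, was at 1567 ± 149 in normoxia against 1368 ± 192 in hypoxia (log2 difference -0.20, interval -0.52 to 0.12), and UCK1, a uridine and cytidine kinase, was at 1178 ± 46.2 in normoxia against 1216 ± 29.0 in hypoxia (log2 difference 0.046, interval -0.10 to 0.19). Neither passed, and the arrays of the conditions overlapped in both. The interval of APRT leaves room for a fall as large as that of HPRT1, while that of UCK1 does not reach -0.38.

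Among the enzymes of interconversion and breakdown, PNP and NME1 fell. PNP, the phosphorylase that releases bases from purine nucleosides, was at 1809, 1817 and 1875 in normoxia and 499, 512 and 521 in hypoxia, a fall from 1834 ± 35.9 to 511 ± 11.2 (a log2 difference of -1.81, interval -1.94 to -1.68, with an adjusted p of 2.07e-05 in limma). Its arrays lay within a narrow range in each group, and it had 1 probe set. NME1, a nucleoside diphosphate kinase that completes the triphosphates, fell from 8649.9 ± 73.0 to 4888 ± 176 (log2 difference -0.82, limma adjusted p = 0.000146), also with 1 probe set. NME4, a mitochondrial relative, was at 1314 ± 149.9 in normoxia against 1305 ± 27.0 in hypoxia (log2 difference -0.0034, interval -0.24 to 0.23), and CMPK1, the kinase for uridine and cytidine monophosphate, was at 5119 ± 209 in normoxia against 5081 ± 177 in hypoxia (log2 difference -0.010, interval -0.16 to 0.14). NT5C2, a cytosolic nucleotidase, was at 1111 ± 20.7 in normoxia against 1079 ± 24.3 in hypoxia (log2 difference -0.041, interval -0.17 to 0.090). None of these 3 passed, and their groups overlapped.

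GUK1, the guanylate kinase, rose from 2359 ± 83.4 to 2999 ± 140.3 (a log2 difference of 0.34, interval 0.19 to 0.50, with an adjusted p of 0.00737 in limma), and ADA, which deaminates adenosine, rose from 2772 ± 159 to 3322 ± 119 (a log2 difference of 0.26, interval 0.093 to 0.43, with an adjusted p of 0.0274 in limma). Both rises were small, and both calls were lost with the mean of the probe sets (GUK1 0.17, limma adjusted p = 0.162, and ADA 0.19, limma adjusted p = 0.0922). For GUK1 that mean takes in a dim second probe set, at 42.1 in normoxia and 42.0 in hypoxia, below the array medians. The second probe set of ADA, at 1213 ± 79.5 and 1322 ± 143, did not pass. The call of ADA was also lost without any single array except normoxia replicate 0: limma adjusted p was 0.0773 and 0.0689 without normoxia replicates 1 and 2, and 0.0602, 0.0508 and 0.0916 without hypoxia replicates 0, 1 and 2, at changes of 0.21 to 0.29.

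SAMHD1, which breaks deoxynucleoside triphosphates down to nucleosides, was read by 6 probe sets that disagreed. The one with the highest mean log2 value was at 1039.8, 975 and 1071 in normoxia and 952, 936 and 933 in hypoxia and did not pass (log2 difference -0.13, interval -0.27 to 0.020, limma adjusted p = 0.163). Its hypoxia arrays all lay below its normoxia arrays, and with dim genes left out it passed at that size (limma adjusted p = 0.0428). Of the other 5, 4 fell, with log2 differences of -1.10 to -1.66, and a dim one, at 24.1 in normoxia, rose by 0.55. The probe set brightest in normoxia was at 1515, 1466 and 1480.3 in normoxia and 485, 505 and 410.1 in hypoxia (log2 difference -1.64, limma over all probe sets, adjusted p = 0.000115). Averaged over its 6 probe sets, SAMHD1 fell by 0.89 (limma adjusted p = 0.000154). The names of 3 of these probe sets carry a suffix for probes that may bind several transcripts. Of the 4 that fell, the one without it went from 1169 ± 21.2 to 440.1 ± 51.9 (log2 difference -1.38, limma over all probe sets, adjusted p = 0.000228). Such suffixes are not particular to SAMHD1. The probe sets that stand for DUT, IMPDH2, GUK1, UMPS, PPAT, RRM1 and RRM2, among others, carry one as well.

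Over all probe sets of the members, 51 of 90 fell and 9 rose in the fit over all 54613 probe sets, where 15.2% fell and 15.5% rose. Of the 37 members, 10 had 1 probe set, and of the 18 called members with several, 14 had another probe set called the same way. PPAT, GART and DTYMK are among these 14 but also had at least 1 called the opposite way, which for GART held for 6 of its 8 others. With the mean of all probe sets of a gene, 25 members fell and 1 rose, IMPDH2, in place of 23 and 4. Over all 19775 genes, 3790 fell and 3030 rose in that setting.

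The other pathway lists are read against the 20.6% of all genes that fell and the 16.9% that rose. Of 36 listed other nucleotide enzymes, 31 were measured, of which 5 rose and 5 fell (16.1% each way, near those shares; median 0.016). AMPD3, an adenosine monophosphate deaminase, rose from 553 ± 11.5 to 1771 ± 121 (log2 difference 1.65), and AK4, a mitochondrial adenylate kinase, rose from 941 ± 65.9 to 2315 ± 191 (log2 difference 1.28). UPP1, a uridine phosphorylase, fell from 679 ± 38.3 to 231 ± 25.5 (log2 difference -1.50) and ITPA, which clears inosine triphosphate, fell from 2099.9 ± 81.0 to 1092 ± 52.9 (log2 difference -0.93). Limma adjusted p-values of these 4 genes were 4.13e-05 to 0.000158. The list does not hold every such enzyme: AMPD1, a paralogue of AMPD3 named after its value was seen, was outside it and rose by 2.33 (limma adjusted p = 2.07e-05). RRM2B, the small reductase subunit known to serve outside S phase, was named after its value was seen, at 471 ± 6.80 in normoxia against 501 ± 15.2 in hypoxia (log2 difference 0.086, interval -0.048 to 0.22, limma adjusted p = 0.293).

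Thymidylate and purine synthesis depend on one-carbon units carried by folate. Of 14 measured folate and one-carbon genes, 9 fell (64.3%, against 20.6% of all genes and 35.9% of the bright genes above) and 1 rose (median -0.51). SLC19A1, the reduced folate carrier, fell from 837 ± 32.1 to 164 ± 10.5 (log2 difference -2.24), as did ALDH1L2, a mitochondrial folate enzyme (-1.50), MTHFD1, a cytosolic enzyme of several folate steps (-1.31), and SLC25A32, a mitochondrial folate carrier (-1.26). The 1 folate gene counted as higher was SHMT1, a dim gene at 39.0 ± 6.55 in normoxia and 59.6 ± 4.59 in hypoxia. No folate gene was called higher without hypoxia replicate 1 or with the probe set brightest in normoxia. With a pseudocount of 64, quantile normalization, an intensity trend or a replicate block, 2 were. In the pentose phosphate pathway, which supplies ribose phosphate, 3 of 6 measured genes fell and 1 rose, against 20.6% and 16.9% of all genes. RPIA, the isomerase that forms ribose phosphate, fell from 2008 ± 68.1 to 570.2 ± 38.7 (log2 difference -1.79), TKT, a transketolase, rose by 0.78, and RPE (-0.23) and TALDO1 (-0.20) fell. Leaving out any single array except normoxia replicate 0, or quantile normalization, left 1 of the 6 genes called lower in place of 3. Among 9 measured nucleoside and nucleotide carriers (11.1% each way, below those shares), 1 fell, SLC25A33 at -1.01, and 1 rose, SLC25A36 at 0.53, both of the mitochondrial membrane, while SLC29A2 (0.60) and SLC29A4 (-0.14) did not pass. Of the carriers, 2 rose without normoxia replicate 2, with a pseudocount of 64 or with an intensity trend, and 2 fell with the mean of probe sets. Limma adjusted p-values of the genes that passed in this paragraph were at most 0.0354.

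The label of the cells was checked against marker genes. All 8 plasma cell markers, among them SDC1, XBP1, IRF4 and TNFRSF17, were above an intensity of 100 in a condition, and the summed intensity of their probe sets was 42834 to 44440.3 over the normoxia arrays and 41274 to 43026 over the hypoxia arrays. Within that sum CD38 (-0.71), SLAMF7 (-0.34), SDC1 (-0.30) and MZB1 (-0.26) fell and XBP1 rose (0.22; limma adjusted p at most 0.0278), and the other 3 did not pass. Summed intensities of myeloid (4 genes) and epithelial markers (5 genes) were at most 187 and 255. Those of fibroblast and stroma markers (5 genes) were 281 to 421 over all arrays. Those of T cell markers (5 genes) were 1205 to 1423 in normoxia and 1713 to 2047 in hypoxia, most of it from CD247, which rose by 0.64. CD3D rose from 98.3 ± 14.9 to 132 ± 7.73 (limma adjusted p = 0.0370), while CD3E, CD3G and CD2 did not pass, with CD3G at 18.4 and 22.0. Erythroid markers (3 genes) summed to 1728 to 1942 in normoxia and 1141 to 1204 in hypoxia, 1 of them above 100. That was HBB, which fell from 1751 ± 128 to 1125 ± 27.7 (log2 difference -0.63, limma adjusted p = 0.000978). Among myeloid markers, CD14 was at 6.34 in normoxia and 6.85 in hypoxia, and CSF1R at 76.2 and 80.2. EPCAM rose from 24.8 ± 4.04 to 67.3 ± 9.97 (log2 difference 1.03, limma adjusted p = 0.000995), and the other epithelial and the myeloid markers did not pass. The part of these differences in the results was not tested.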

How the data were processed

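Per the labels' protocols, biotin-labelled cRNA was made from total RNA isolated with the RNeasy kit. The deposited table holds the authors' linear intensity for 54613 probe sets on each array. The background correction, probe summary and scaling are not given in the sources used here. Array medians were 54.95 to 60.1. The 15 pairs of arrays shared 1.07% to 1.23% of identical values, so no array is a copy of another, and each counted as 1 sample. That share cannot show whether the arrays came from separate cultures. No detection calls were used, and having 3 arrays a group bounds the precision. Groups came from the condition label and replicate numbers from the titles.

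Of the probe sets, 41091 carried 1 symbol in the platform annotation, 1801 several and 11721 none here; the last 2 kinds were left out. Symbols were updated through Entrez identifiers (41037 found in RefSeq). Values were turned into log2(intensity + 16) and tested with limma 3.58.1 (lmFit and eBayes, R 4.3.3), two-sided, without covariates, with Benjamini-Hochberg adjustment over all 19775 genes (or all probe sets) at 0.05. Members and lists were chosen with earlier results of these data known. Every measured member is named. The value of every array is given for members past the threshold that changed by at least 1 and for 11 enzymes set as defining their branch, and up to 4 genes are named from each other list. Alternatives were 2 other pseudocounts, averaging each gene's probe sets, a filter on dim genes (mean log2 below 8), quantile normalization, median centring, an intensity trend, a replicate block and each array left out. The mean of probe sets with a mean log2 of at least 8 and the probe set brightest in normoxia were added after seeing the data. The test was also run on simulated data with far fewer changed genes than these arrays, and no support is drawn from that run here.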

Additional observations from a re-analysis of the deposited data

How the results depend on the processing

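The members that fell numbered 22 to 26 under all alternatives and those that rose 3 to 6, except 1 when probe sets of a gene were averaged. Leaving out each array in turn gave 22 to 23 lower and 3 to 4 higher. Of the 37 single changes, GART reversed with the mean of probe sets (-0.48), with that of brighter probe sets (-0.44) and with the probe set brightest in normoxia (-0.81, a choice that favours falls), and DGUOK with the mean of brighter probe sets (-0.17). The medians below moved by more than the SD over the hypoxia arrays, which was 0.0040 for deoxynucleotide and 0.19 for salvage genes. By that rule small shifts of the deoxynucleotide median are listed, while larger ones of the salvage median are not. The salvage median was -0.27 to -0.079 over all alternatives. With the mean of probe sets they were -1.08 for de novo pyrimidine, -0.62 for de novo purine, -0.90 for deoxynucleotide and 0.0022 for interconversion and breakdown genes. With brighter probe sets they were -0.62 (purine), -1.21 (deoxynucleotide), -0.046 (interconversion) and -0.62 (all members), and with the probe set brightest in normoxia -0.94 (deoxynucleotide). With quantile normalization they were -1.74, -0.42, -0.81, 0.047 and -0.39 for pyrimidine, purine, deoxynucleotide, interconversion and all members. The pyrimidine median was -1.92 with a pseudocount of 1 and -1.51 with 64, and the deoxynucleotide median -0.85 with 64 and -0.85 with median centring. Leaving out single arrays gave -0.87 to -0.85 (deoxynucleotide) and -0.076 to -0.0045 (interconversion). The cause of these shifts was not tested. Replicate numbers were not treated as pairing. Deviations of same-numbered arrays correlated at 0.24, 0.0064 and 0.21 over genes for the numbers 0, 1 and 2. Arrays numbered 0 and 2 correlated best with their own number. Normoxia replicate 1 (0.023) and hypoxia replicate 1 (0.11) each correlated better with another number. With the replicate block, 23 members fell and 4 rose, and no member's call changed, while the calls over all genes were 4140 lower and 3493 higher. No scaling moved the median of all genes by 0.1.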
